A study of Mus musculus with 9 samples.

Results

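The wild-type mouse retina with oxygen-induced retinopathy was compared with the wild-type retina of mice kept in room air, over all genes measured. The comparison uses 6 of the 9 libraries of the series, chosen by their labels: 3 libraries of wild-type retinas with retinopathy (OIR WT) and 3 libraries of wild-type retinas from room air (RA WT). All mice were C57BL/6 and were sampled at postnatal day 17. The other 3 libraries, from IL-19 knockout retinas with retinopathy (OIR KO), entered the fit for the estimate of spread and are quoted only where a result turns on them. RNA came from frozen retinas, and RNA-seq values are FPKM, fragment counts scaled by gene length and by library size. The table lists 25108 genes and gene models, of which 15678 reached 0.5 FPKM in 3 or more of the 9 libraries and were tested.

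In this model, newborn pups breathe high oxygen, which halts the growth of retinal capillaries and prunes those already formed. On return to room air, the retina left without capillaries becomes hypoxic, and new vessels sprout, many of them leaky and misplaced. Cells sense oxygen through prolyl hydroxylases that mark the hypoxia-inducible factors (HIF) for destruction. When oxygen is low the factors persist and raise genes of glycolysis, red cell production and vessel growth. Müller glia, which span the retina, buffer potassium, water and glutamate for its neurons and become reactive under stress. The labels do not state the oxygen level or the days of exposure, or whether a sample was 1 animal or a pool.

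Values are given per library in the order of the labels' numbers 1 to 3, or as mean ± SD with n = 3 libraries per group. Differences are OIR WT minus RA WT of log2(FPKM + 0.5), given ± the standard error (SE), with limma's adjusted p. A gene with an adjusted p under 0.05 is called, and called genes are said to have risen or fallen. Nothing in the labels says that samples of a group are separate animals, so a p-value here reflects only variation from sample to sample, and that variation may be technical.

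The tissue matched its label. All 12 genes of a list of defining retinal markers passed the filter. Of the 12, 3 fell, among them Glul and Rlbp1. The number of reads per library is unknown, and relative depth of the 6 libraries lay between 0.872 (RA WT 2) and 1.13 (RA WT 3) of their mean. On the leading principal component, with 47.2% of the variance, the RA WT libraries lay between -37.2 and -35.9 and OIR WT 1, 2 and 3 at 28.9, 11.7 and 31.3. OIR WT 2 was the OIR WT library nearest to the RA WT mean in 828 of the 1261 risen genes (65.7%) and in 531 of the 1242 fallen genes (42.8%). The summed level of 21 lens genes was 31.9 to 141 FPKM in RA WT, highest in RA WT 1, and 29.8 to 42.7 FPKM in OIR WT. The 4 tested Y-linked genes were at 0 in RA WT 2. Of the 8 erythroid markers 5 passed the filter and rose, but no call held in every fit without 1 library. Of the 5, 2 were called omitting OIR WT 2, and 0 omitting any other library. Their list summed to 82.7 to 158 FPKM in RA WT and 512 to 1431 FPKM in OIR WT, lowest there in OIR WT 2.

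Between the groups 2503 genes changed (16.0% of those tested), of which 1261 rose (8.04%) and 1242 fell (7.92%). Rises were larger than falls. The median log2 difference was 0.84 among risen and -0.64 among fallen genes, and 479 genes rose (3.06%) and 151 fell (0.963%) by at least 2-fold. At 4-fold the numbers were 105 risen and 8 fallen, and at 8-fold 34 and 1. The groups did not overlap in 5488 genes (35.0%), with OIR WT higher in 17.8% of all tested genes and lower in 17.2%. Counts of risen and fallen list members below are to be read against the 8.04% and 7.92% of all tested genes. Many calls were lost when 1 library was left out: 913 genes (5.82%), 479 risen (3.06%) and 434 fallen (2.77%), were called in all 6 fits that left out 1 library. Omitting RA WT 2 gave 1471 calls, omitting RA WT 3 gave 1414, omitting OIR WT 1 gave 1031 and omitting OIR WT 3 gave 1331. Among the genes described below, calls lost without a library are given with that library. Where a list had 1 or 2 called members in a direction, leaving out 1 library could bring the count to 0 or raise it, and some counts of 0 became 1. Reads shared with an overlapping gene make a level uncertain. Overlaps in the annotation were looked up only for genes taken by the naming rule given with the processing, so other genes named below may have them. Genes named below that were found with an overlap, beside those marked there, are Alas2, Aldh1l2, Bfsp2, Bhlhe40, Dll4, Evi2a, Glul, Grin1, H2-Q4, Hspa1a, Icam1, Jun, Kcnip4, Lilrb4a, Matn4, Mt2, Pdia6, Pfkp, Rab3a, Six6, Slc25a37, Slc2a1, Tef and Tgm2.

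**Figure D1:**
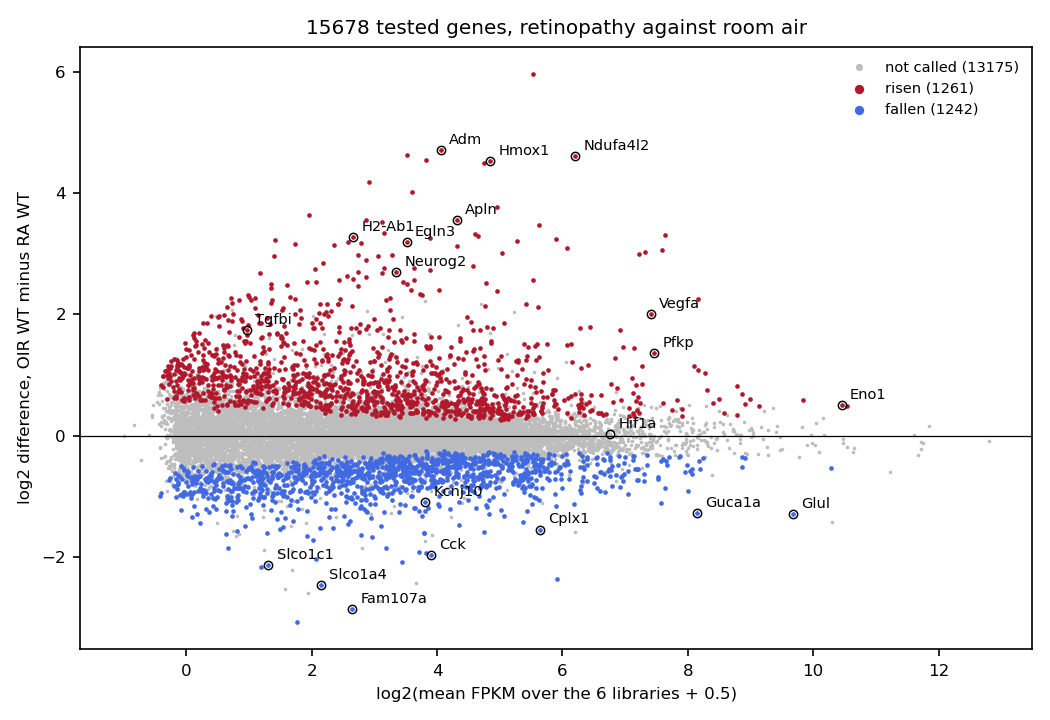
Each point is a gene: its mean level over the 6 libraries, as log2(FPKM + 0.5), against its log2 difference, OIR WT minus RA WT. The 1261 risen genes (red) reach larger differences than the 1242 fallen genes (blue), and circles mark named genes such as Adm (log2 4.71), Slco1a4 (log2 -2.47) and Hif1a (log2 0.03).

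Targets of oxygen sensing were among the leading rises. Ndufa4l2, a mitochondrial protein induced by HIF (chr10:127514967-127517154, plus strand, in GRCm38), had the smallest p of all genes. It measured 4.13, 5.95 and 6.0 FPKM for RA WT against 139, 123 and 162 for OIR WT, and the groups lay far apart (log2 difference 4.61 ± 0.20, adjusted p = 1.42e-05). Its annotated span touches Shmt2 on the other strand, so its level is uncertain by the reads shared there. The factors themselves did not pass the test at the level of RNA. Hif1a was at RA WT 107 ± 14.3, OIR WT 109 ± 4.12 FPKM (log2 0.03, adjusted p = 0.864) and Epas1, which encodes HIF-2α, at RA WT 33.9 ± 4.08, OIR WT 33.4 ± 1.05 FPKM (log2 -0.01, adjusted p = 0.948). Of the 15 tested genes of oxygen sensing, 2 rose and 1 fell, a share of called members of 20.0% against 16.0% of all genes. Those that rose were the prolyl hydroxylases Egln1, from 27.8 ± 0.481 to 69.9 ± 10.4 FPKM (log2 1.30), and Egln3, from 1.72 ± 0.328 to 20.1 ± 5.65 FPKM (log2 3.19). Hif3a, a family member that can act as an inhibitor, fell from 4.11 ± 0.471 to 1.95 ± 0.329 FPKM (log2 difference -0.92 ± 0.13, adjusted p = 0.00339).

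Of 31 tested hypoxia targets outside glycolysis, 25 rose and 0 fell, and 20 of the rises held in every fit without 1 library. Their median difference was 0.86, against 0.02 over all genes tested. Adm, the vasodilator peptide adrenomedullin, measured 0.565, 0.876 and 0.736 FPKM for RA WT against 28.4, 32.3 and 34.0 for OIR WT (log2 difference 4.71 ± 0.37, adjusted p = 0.000505). Stc2, a secreted calcium regulator, measured 1.43, 1.29 and 1.60 FPKM for RA WT against 6.50, 7.07 and 7.79 for OIR WT (log2 difference 1.97 ± 0.16, adjusted p = 0.000252). Ero1l, which makes disulfide bonds in the endoplasmic reticulum, rose from 14.5 ± 1.99 to 42.7 ± 4.51 FPKM, and Ddit4, an inhibitor of the growth kinase mTORC1, from 93.4 ± 9.68 to 180.3 ± 11.6 FPKM. For these 4 genes no OIR WT library came near the RA WT range. OIR WT lay wholly above RA WT in 17.8% of all tested genes. Bnip3 (log2 1.47) and Bnip3l (log2 0.63), receptors that send mitochondria to autophagy, rose, as did the collagen prolyl hydroxylases P4ha1 (log2 0.78) and P4ha2 (log2 1.14) and the histone demethylase Kdm3a (log2 0.69). The P4ha1 call was lost on leaving out RA WT 3 (adjusted p then 0.0607) or OIR WT 1 (then 0.0661). Car9, a carbonic anhydrase widely used as a hypoxia marker, stayed under 1 FPKM and did not pass (0, 0.0283 and 0.0664 FPKM for RA WT against 0.646, 0.140 and 0.755 for OIR WT, log2 0.87, adjusted p = 0.0523).

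The promoters of these genes are shown because HIF binds a short core sequence, ACGTG or GCGTG, in the regulatory DNA of its targets. RefSeq promoter windows of GRCm38.p6 were searched over the 250 bases before each gene's start for ACGTG and GCGTG on both strands, that is also CACGT and CACGC. The palindrome CACGTG counts as overlapping matches. Of 36 risen members of the hypoxia and glycolysis lists, 27 matched a window by symbol. Where a symbol had several windows (4162 symbols), only the first listed was counted. ACGTG or its complement stood in 13 of the 27 (48.1%) and in 21.4% of the 10839 tested genes with a window. Over all 26794 symbols with a window the share was 16.7%. With GCGTG added, the shares were 77.8%, 56.0% and 38.9%. Among all risen genes 23.6% held ACGTG and among fallen genes 17.3%. The windows differ in base composition, with a median GC content of 62.8% in the 27 and 60.0% in the tested genes. A match describes letters and not binding. The 27 come from lists drawn up as hypoxia targets and glycolysis genes, so a higher share of the HIF core may follow from that choice. Whether HIF acts on these genes was not tested. Stretches of 6 of these promoters follow, with the matches in capitals. They were chosen after their values were seen and only from members holding ACGTG or its complement. Each stretch was placed around such a match, so its presence follows from the choice.
Bnip3: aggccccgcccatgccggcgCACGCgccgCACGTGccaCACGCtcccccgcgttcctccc
Ddit4: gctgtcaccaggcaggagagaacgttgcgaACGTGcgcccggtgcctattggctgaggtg
P4ha2: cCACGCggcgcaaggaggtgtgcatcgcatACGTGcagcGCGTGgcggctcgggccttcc
Slc16a3: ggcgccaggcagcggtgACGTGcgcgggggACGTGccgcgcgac
Pgk1: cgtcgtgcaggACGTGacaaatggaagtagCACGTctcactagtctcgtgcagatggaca
Fam162a: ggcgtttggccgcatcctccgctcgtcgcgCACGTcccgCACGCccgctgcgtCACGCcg
They lie at chr7:138909584-138909643, minus strand (Bnip3), chr10:59951928-59951987, minus strand (Ddit4), chr11:54100816-54100875, plus strand (P4ha2), chr11:120949023-120949066, plus strand (Slc16a3), chrX:106186939-106186998, plus strand (Pgk1) and chr16:36071613-36071672, minus strand (Fam162a), each upstream of its gene. Bnip3 rose from 66.0 ± 2.24 to 184 ± 16.0 FPKM, P4ha2 from 6.46 ± 0.178 to 14.9 ± 1.59 FPKM, and Fam162a, a mitochondrial protein of the hypoxia response, from 34.2 ± 4.87 to 99.3 ± 27.6 FPKM (log2 1.5).

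Genes rose at several steps of glycolysis. Of 24 tested genes of glucose uptake and glycolysis, 11 rose and 2 fell, with a median of 0.44. The glucose transporter Slc2a1 measured 95.6, 98.5 and 117 FPKM for RA WT against 183, 162 and 211 for OIR WT (log2 difference 0.83 ± 0.14, adjusted p = 0.00534). Hexokinases 1 and 2, which trap glucose in the cell, did not pass (Hk1, log2 0.46, adjusted p = 0.174; Hk2, log2 0.20, adjusted p = 0.334). The phosphofructokinase subunits, which set the committed step, parted: the platelet form Pfkp rose from 98.9 ± 11.7 to 253 ± 8.01 FPKM (log2 difference 1.36 ± 0.12, adjusted p = 0.000352) and the liver form Pfkl from 109 ± 5.23 to 197 ± 11.2 FPKM (log2 0.85). The muscle form Pfkm was lower, 57.3 ± 5.77 to 40.4 ± 0.886 FPKM (log2 -0.50), a fall lost on leaving out RA WT 3 (adjusted p then 0.0675), OIR WT 1 (then 0.0758) or OIR WT 3 (then 0.0575). The ratio of Pfkp to Pfkm was thus 2.0, 1.90 and 1.35 in RA WT and 6.27, 6.41 and 6.14 in OIR WT. With 3 libraries against 3, its exact two-sided permutation p was 0.1, the smallest the design allows, as for each ratio below.

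Lower in the pathway, Pgk1, phosphoglycerate kinase, measured 325, 292 and 337 FPKM for RA WT against 556, 528 and 590.1 for OIR WT (log2 difference 0.81 ± 0.10, adjusted p = 0.00209). Pgam1 rose from 394 ± 39.9 to 569 ± 39.7 FPKM and Eno1, the enolase of most tissues, from 1157 ± 87.4 to 1643 ± 117 FPKM, the largest gain in FPKM of the genes called in every fit. Enolases, Pgam1 and Ldha have processed copies in the genome, so values of single entries are uncertain by the reads shared with them. Ldha, the lactate dehydrogenase subunit that favours lactate, rose from 728 ± 39.3 to 1100.2 ± 78.3 FPKM (log2 0.60). Ldhb, the subunit that favours pyruvate, was at 122 ± 14.8 to 78.3 ± 5.28 FPKM (log2 -0.64), a fall lost on leaving out RA WT 3 (adjusted p then 0.0564) or OIR WT 1 (then 0.0657). The ratio of Ldha to Ldhb went from 6.01 ± 0.893 to 14.1 ± 1.11. Slc16a3, the lactate exporter MCT4, measured 23.8, 22.5 and 27.1 FPKM for RA WT against 89.4, 58.6 and 66.7 for OIR WT (log2 difference 1.51 ± 0.18, adjusted p = 0.00184), whereas Slc16a1, the carrier MCT1, did not pass (log2 -0.30, adjusted p = 0.16). Their ratio rose from 0.413 ± 0.0410 to 1.52 ± 0.516.

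**Figure D2:**
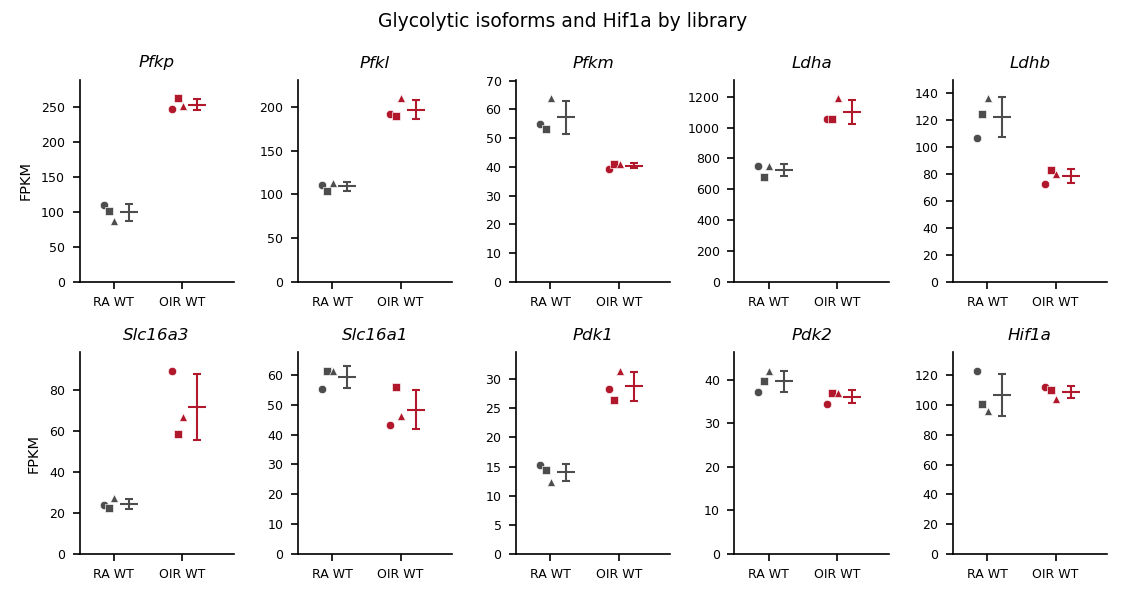
FPKM of 10 genes in each library of RA WT (grey) and OIR WT (red): circles, squares and triangles are libraries 1, 2 and 3, and bars are the mean ± SD (n = 3). Pfkp, Pfkl, Ldha, Slc16a3 and Pdk1 lie higher in OIR WT without overlap, Pfkm and Ldhb lower, and Hif1a overlaps.

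In the list of pyruvate entry, Pdk1 was the member called in every fit. Pdk1, the kinase that shuts pyruvate dehydrogenase, rose from 14 ± 1.44 to 28.7 ± 2.54 FPKM (log2 difference 1.01 ± 0.14, adjusted p = 0.00312), and Pdk2 did not pass (log2 -0.13, adjusted p = 0.295). The Pdk1 to Pdk2 ratio went from 0.356 ± 0.0579 to 0.798 ± 0.0713. Of 26 tested genes of pyruvate entry and the tricarboxylic acid cycle, 2 rose and 3 fell (falls of 1 omitting RA WT 2, 1 omitting RA WT 3, 0 omitting OIR WT 1, 0 omitting OIR WT 2 and 1 omitting OIR WT 3). Those beside Pdk1 (Pdk3, Pdp1, Ogdh and Pdhb) each lost their call without 4 or 5 of the 6 libraries. None of the 36 tested subunits of respiratory complex I was called (median -0.09). Of 38 subunits of complexes II to V, 1 rose and 2 fell, Cox4i2, Cyc1 and Uqcrfs1, with none called in every fit. Fatty acid oxidation had 1 risen and 2 fallen members of 23, again with none called in every fit. Called shares were 19.2% for pyruvate entry and the cycle, 7.89% for complexes II to V and 13.0% for fatty acid oxidation, against 16.0% of all tested genes.

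Genes that fold proteins in the endoplasmic reticulum had no fallen member. Of 23 members of that list, 10 rose and 0 fell (5 omitting OIR WT 1), with a median of 0.33. Hspa5, the chaperone BiP, measured 88.7, 79.2 and 88.4 FPKM for RA WT against 143, 143 and 155 for OIR WT (log2 difference 0.78 ± 0.10, adjusted p = 0.00277), and Pdia4, a disulfide isomerase, 29.8, 26.3 and 30 FPKM for RA WT against 42.6, 43.0 and 43.7 for OIR WT (log2 difference 0.58 ± 0.08, adjusted p = 0.00263). Pdia6 rose from 41.5 ± 2.41 to 60.4 ± 5.57 FPKM. The transcription factors of the unfolded protein response, Xbp1 (log2 0.39, adjusted p = 0.0518) and Atf6 (log2 0.15, adjusted p = 0.285), did not pass.

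In the list of serine synthesis, one-carbon metabolism and the amino acid response, 10 of 24 members rose and 1 fell (rises of 5 omitting OIR WT 1 and 5 omitting OIR WT 3). The mitochondrial folate enzymes led it: Mthfd1l measured 2.92, 2.92 and 2.77 FPKM for RA WT against 7.06, 7.31 and 8.34 for OIR WT (log2 difference 1.26 ± 0.11, adjusted p = 0.000451) and Aldh1l2 0.655, 0.284 and 0.454 FPKM for RA WT against 2.48, 1.73 and 2.79 for OIR WT (log2 difference 1.55 ± 0.21, adjusted p = 0.00283). Ddit3, the stress factor CHOP, rose from 43.0 ± 3.64 to 69.9 ± 8.35 FPKM, in a span it shares with Mars. Slc1a4, a carrier of serine and alanine, rose from 4.77 ± 0.368 to 11.4 ± 2.57 FPKM. Psat1, an enzyme of serine synthesis, fell from 16.9 ± 2.25 to 11.2 ± 0.363 FPKM (log2 -0.56), and the pathway's entry enzyme Phgdh did not pass (log2 0.29, adjusted p = 0.453). Atf4, which drives many of these genes, was also not called (log2 0.31, adjusted p = 0.088).

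Heat shock genes rose in 5 of 22 members (3 omitting RA WT 2 and 3 omitting OIR WT 1), led by Hspa1a, an inducible chaperone of the cytosol (from 19.5 ± 1.26 to 32.5 ± 5.59 FPKM, log2 0.71), whose near-identical copy Hspa1b was at log2 0.79. Hmox1, which degrades haem, measured 1.5, 1.07 and 2.54 FPKM for RA WT against 64.1, 22.2 and 78.2 for OIR WT (log2 difference 4.52 ± 0.84, adjusted p = 0.0116). It belongs to the list of NRF2 targets and metallothioneins, of which 4 of 23 rose and 1 fell (rises of 2 omitting RA WT 2 and 2 omitting OIR WT 1). Nfe2l2, which encodes NRF2, rose from 10.7 ± 1.23 to 20.3 ± 3.28 FPKM (log2 0.88), but Nqo1, Gclc, Gclm, Srxn1 and Txnrd1, antioxidant targets of the same factor, were not called. The metallothionein Mt2 rose from 37.7 ± 9.48 to 345 ± 176 FPKM, lost on leaving out RA WT 2 (adjusted p then 0.0502) or OIR WT 1 (then 0.0515). Among iron genes 3 of 15 rose (1 omitting RA WT 2, 1 omitting RA WT 3 and 1 omitting OIR WT 1), with Slc25a37, the mitochondrial iron importer mitoferrin 1 of red cell precursors, going from 14.5 ± 1.34 to 69.7 ± 22.8 FPKM (log2 difference 2.17 ± 0.39, adjusted p = 0.0102). In Hmox1 and Slc25a37, OIR WT 2 was the lowest OIR WT library, as it was for the erythroid markers. Alas2, the haem synthesis enzyme of red cell precursors, measured 0.318, 0.162 and 0.607 FPKM for RA WT against 3.71, 1.83 and 5.87 for OIR WT and beta globin Hbb-bs 28.2, 26.1 and 45.3 FPKM for RA WT against 431, 156 and 509 for OIR WT. The Alas2 call was lost on leaving out RA WT 1 (adjusted p then 0.0723), RA WT 2 (then 0.0922), RA WT 3 (then 0.0608), OIR WT 1 (then 0.0982) or OIR WT 3 (then 0.0982). The Hbb-bs call was lost on leaving out RA WT 1 (adjusted p then 0.101), RA WT 2 (then 0.114), RA WT 3 (then 0.0805), OIR WT 1 (then 0.122) or OIR WT 3 (then 0.119). Enzymes of prostaglandins, nitric oxide and arginine had 1 risen and 2 fallen of 19 (15.8% called). Of all tested genes 16.0% were called, against 22.7% of the heat shock list, 21.7% of NRF2 targets and metallothioneins and 20.0% of iron genes. The part of blood in these results was not tested.

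Counts for machinery common to all cells are read against the 8.04% of all tested genes that rose. Of 56 cytosolic ribosomal proteins 2 rose (3.57%; median 0.20) and of 31 proteasome subunits none was called. In ribosome biogenesis 2 of 22 rose (9.09%), among them the growth regulator Myc (from 0.700 ± 0.178 to 2.51 ± 0.694 FPKM, log2 1.31). Of 20 tRNA synthetases 3 rose (15%), led by Tars (log2 0.51) and Eprs (log2 0.42).

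Of 9 tested VEGF family genes 3 rose and 0 fell. Vegfa, the main growth factor for new vessels, measured 69.7, 69.2 and 62.4 FPKM for RA WT against 269.5, 278 and 267 for OIR WT (log2 difference 2.01 ± 0.14, adjusted p = 0.000111). Pgf, a second ligand of the receptor Flt1, measured 0.341, 0.444 and 0.981 FPKM for RA WT against 8.59, 4.33 and 9.45 for OIR WT (log2 difference 2.85 ± 0.50, adjusted p = 0.0089). The receptors Kdr (RA WT 23.1 ± 0.777, OIR WT 26.1 ± 3.12 FPKM, log2 0.16, adjusted p = 0.301) and Flt1 (RA WT 13.2 ± 1.65, OIR WT 13.8 ± 1.36 FPKM, log2 0.07, adjusted p = 0.827) did not pass. The ligands Vegfb (log2 -0.42, adjusted p = 0.0642) and Vegfc (log2 -0.34, adjusted p = 0.2) did not pass either. Nrp1, a co-receptor, was the third that rose (log2 0.70), lost on leaving out RA WT 1 (adjusted p then 0.0536), RA WT 2 (then 0.0858), RA WT 3 (then 0.0576), OIR WT 1 (then 0.0659), OIR WT 2 (then 0.0508) or OIR WT 3 (then 0.0963). In a bulk sample, fewer cells of a type and less RNA per cell cannot be told apart, here and below.

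Apln, the apelin ligand made by sprouting tip cells, measured 2.05, 2.67 and 2.88 FPKM for RA WT against 23.9, 38.1 and 46.5 for OIR WT (log2 difference 3.55 ± 0.33, adjusted p = 0.00102), and its receptor Aplnr did not pass (log2 0.67, adjusted p = 0.0952). Angpt2, which loosens vessels for sprouting, rose from 1.29 ± 0.156 to 10.4 ± 2.95 FPKM (log2 2.58), and Tek, the receptor it acts on, was at 2.22 ± 0.443 to 0.918 ± 0.318 FPKM (log2 -0.95), a fall lost on leaving out RA WT 3 (adjusted p then 0.0583) or OIR WT 3 (then 0.051). Ramp1, a co-receptor of calcitonin-family peptides, fell from 1.23 ± 0.345 to 0.385 ± 0.0990 FPKM (log2 -0.96). In all, 5 of 14 genes on the list of these systems rose and 2 fell (rises of 4 omitting OIR WT 1 and 4 omitting OIR WT 3). Those that rose were Apln, Angpt2, Adm, Adm2 and Tie1, and those that fell were Tek and Ramp1. Adm is also counted among the hypoxia targets, and the Tie1 call did not hold in every fit. Dll4, the Notch ligand of tip cells, rose from 1.15 ± 0.228 to 2.58 ± 0.493 FPKM (log2 difference 0.90 ± 0.17, adjusted p = 0.00933). Of 17 tested Notch genes 4 rose and 1 fell, but the calls were 1 omitting RA WT 1, 2 omitting RA WT 2, 1 omitting RA WT 3, 1 omitting OIR WT 1 and 1 omitting OIR WT 3. No member of the 17 tested Norrin and Wnt genes rose, and Dkk3, a secreted Dickkopf protein, fell from 256 ± 36.5 to 139 ± 9.48 FPKM (log2 difference -0.87 ± 0.12, adjusted p = 0.00276).

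Members of the blood-retinal barrier list moved in both directions. Slco1a4 (chr6:141805440-141856199, minus strand), an organic anion carrier of barrier endothelium, measured 6.27, 7.49 and 7.24 FPKM for RA WT against 0.819, 1.09 and 0.682 for OIR WT and had the smallest p among fallen genes (log2 difference -2.47 ± 0.15, adjusted p = 0.000111). Slco1c1, which carries thyroid hormone, measured 3.12, 4.13 and 3.33 FPKM for RA WT against 0.593, 0.445 and 0.240 for OIR WT (log2 difference -2.13 ± 0.19, adjusted p = 0.000495). The export pump Abcb1a (2.74, 2.94 and 3.42 FPKM for RA WT against 1.59, 0.719 and 0.858 for OIR WT, log2 -1.22) and the lipid transporter Mfsd2a (2.87, 4.94 and 4.64 FPKM for RA WT against 1.5, 1.42 and 2.10 for OIR WT, log2 -1.08) also fell, and Slc22a8, an organic anion transporter, fell from 3.67 ± 0.528 to 0.953 ± 0.363 FPKM. No OIR WT library reached the RA WT range in these 5 genes, and OIR WT lay wholly below RA WT in 17.2% of all tested genes. The glucose transporter Slc2a1, described with glycolysis, is on the list too and rose (log2 0.83). Plvap, a protein of fenestrated, leaky endothelium, rose from 2.56 ± 0.536 to 5.55 ± 1.07 FPKM (log2 difference 0.98 ± 0.17, adjusted p = 0.00599). In this list 4 of 23 members rose and 7 fell, with rises of 2 omitting RA WT 2 and 2 omitting OIR WT 1. Claudin 5 (Cldn5), the main tight junction protein of these vessels, overlapped between the groups (RA WT 24.3 ± 5.88, OIR WT 23.7 ± 4.41 FPKM, log2 -0.03, adjusted p = 0.948). Ly6c1, an endothelial surface protein, fell from 17 ± 1.31 to 3.69 ± 0.847 FPKM (log2 difference -2.07 ± 0.14, adjusted p = 0.000111).

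Several genes of mural cells and contraction rose. Pdgfb, the endothelial ligand that recruits pericytes, measured 1.97, 2.92 and 2.66 FPKM for RA WT against 7.22, 9.20 and 9.41 for OIR WT (log2 difference 1.60 ± 0.23, adjusted p = 0.00324), and the pericyte genes Cspg4 (from 0.703 ± 0.0668 to 2.09 ± 0.363 FPKM) and Rgs5 (from 29.2 ± 4.16 to 53.4 ± 9.03 FPKM) rose with it. S1pr1, an endothelial receptor for sphingosine-1-phosphate, fell from 16.4 ± 2.65 to 8.71 ± 1.11 FPKM (log2 -0.87). The list had 6 risen and 1 fallen of 13 (rises of 3 omitting RA WT 3, 3 omitting OIR WT 1 and 3 omitting OIR WT 3). Targets of YAP-TEAD and of serum response factor, which report on tension and the actin skeleton, rose in 10 of 20 members with 0 fallen. All 10 held in every fit without 1 library, and the median was 0.86. Acta2, smooth muscle actin, measured 2.95, 5.75 and 5.53 FPKM for RA WT against 23.6, 20.4 and 37.2 for OIR WT (log2 difference 2.40 ± 0.36, adjusted p = 0.00488), Tpm2, a tropomyosin, 1.70, 1.0 and 1.23 FPKM for RA WT against 6.49, 5.0 and 9.01 for OIR WT (log2 difference 2.0 ± 0.27, adjusted p = 0.00276), and Cyr61, a matricellular YAP target, 1.70, 2.89 and 3.12 FPKM for RA WT against 12.0, 27.3 and 24.2 for OIR WT (log2 difference 2.77 ± 0.48, adjusted p = 0.00877). Yap1 itself (log2 0.34, adjusted p = 0.266) and Ctgf (log2 1.05, adjusted p = 0.125) did not pass. Several of these members are also smooth muscle genes, as background.

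Integrins and adhesion genes rose in 10 of 22 members with 1 fallen (6 omitting OIR WT 1 and 6 omitting OIR WT 3 for the rises). Itga5, the fibronectin receptor chain, measured 0.724, 1.47 and 1.09 FPKM for RA WT against 3.94, 2.96 and 5.10 for OIR WT (log2 difference 1.5 ± 0.25, adjusted p = 0.00537), and Tgm2, a crosslinking enzyme, 1.25, 1.54 and 2.24 FPKM for RA WT against 14.5, 8.33 and 22.8 for OIR WT (log2 difference 2.77 ± 0.46, adjusted p = 0.00745). In the TGF-beta and BMP list 6 of 26 rose and 4 fell, with rises of 1 omitting OIR WT 1 and 2 omitting OIR WT 3 and falls of 1 omitting RA WT 2, 2 omitting RA WT 3, 1 omitting OIR WT 1 and 2 omitting OIR WT 3. Tgfbi, a matrix protein induced by TGF-beta, rose from 0.399 ± 0.131 to 2.49 ± 0.349 FPKM (log2 difference 1.74 ± 0.19, adjusted p = 0.00126) and Bmp7 fell from 4.55 ± 0.788 to 2.50 ± 0.194 FPKM (log2 -0.74). The ligand Tgfb1 rose from 1.90 ± 0.472 to 6.12 ± 2.03 FPKM, lost on leaving out OIR WT 1 (adjusted p then 0.051). Guidance genes had 6 risen and 2 fallen of 27: the semaphorin receptor Plxnd1 rose from 2.67 ± 0.459 to 8.49 ± 1.40 FPKM (log2 difference 1.5 ± 0.22, adjusted p = 0.00349) and the netrin receptor Unc5b from 3.29 ± 0.644 to 6.70 ± 0.423 FPKM (log2 0.94). Of the IGF axis 6 of 15 rose and 1 fell, among them the binding proteins Igfbp5 (from 10.9 ± 2.01 to 21.3 ± 2.56 FPKM) and Igfbp7 (from 39.4 ± 11.8 to 133 ± 5.17 FPKM, in a span shared with Polr2b) and the receptor Igf1r (from 15.9 ± 2.29 to 23.6 ± 0.229 FPKM). The ligand Igf1 did not pass (log2 0.15, adjusted p = 0.528).

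**Figure D3:**
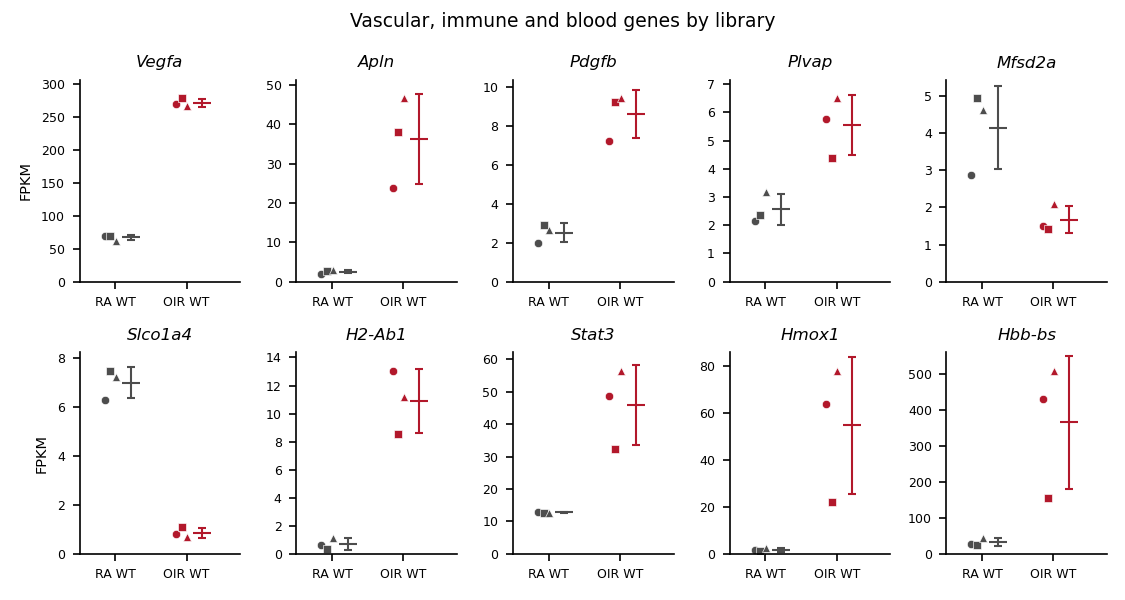
FPKM of 10 vascular, immune and blood genes in each library of RA WT (grey) and OIR WT (red): circles, squares and triangles are libraries 1, 2 and 3, and bars are the mean ± SD (n = 3). Mfsd2a and Slco1a4 lie lower in OIR WT and the other 8 higher. Genes for which OIR WT 2 (square) is the lowest OIR WT library include H2-Ab1, Stat3, Hmox1 and Hbb-bs.

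Members of the STAT3 signalling list that rose included a ligand, a receptor and targets. Lif, a ligand of this family, measured 0.0459, 0.0852 and 0.177 FPKM for RA WT against 1.90, 1.42 and 5.24 for OIR WT (log2 difference 2.31 ± 0.46, adjusted p = 0.0122), and Osmr, the oncostatin M receptor, 1.20, 1.67 and 1.30 FPKM for RA WT against 6.78, 5.42 and 10.4 for OIR WT (log2 difference 2.05 ± 0.37, adjusted p = 0.00905). Stat3, the transcription factor, measured 13.0, 12.7 and 12.7 FPKM for RA WT against 48.8, 32.4 and 56.5 for OIR WT (log2 difference 1.77 ± 0.30, adjusted p = 0.00715), and its targets Junb (from 12.5 ± 3.19 to 78.8 ± 30.9 FPKM) and Cebpd (from 3.50 ± 1.43 to 57.7 ± 28.7 FPKM) rose. In each of these 5 genes OIR WT 2 was the lowest OIR WT library, and it still lay above all RA WT libraries. The groups were separate in this direction in 17.8% of all tested genes. The shared receptor chain Il6st did not pass (log2 0.62, adjusted p = 0.148). In the list, 9 of 23 members rose and 1 fell (rises of 5 omitting RA WT 2 and 5 omitting OIR WT 1). Stat3, Junb and Cebpd overlap Stat5a, Prdx2 and Spidr in the annotation, which makes their levels uncertain by shared reads.

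The NF-kappaB list had 7 risen of 21 and 0 fallen, but no call held in every fit (2 omitting RA WT 1, 1 omitting RA WT 2, 3 omitting RA WT 3, 0 omitting OIR WT 1 and 1 omitting OIR WT 3). Rela, the main subunit, did not pass (log2 0.44, adjusted p = 0.0686). Cell death genes rose in 8 of 27 members (4 omitting RA WT 1, 3 omitting RA WT 2, 4 omitting RA WT 3, 2 omitting OIR WT 1 and 2 omitting OIR WT 3). Ripk3, the kinase of necroptosis, measured 0.0756, 0.0291 and 0.0223 FPKM for RA WT against 1.09, 1.16 and 1.56 for OIR WT (log2 difference 1.70 ± 0.16, adjusted p = 0.000505) and Bbc3, the apoptosis initiator PUMA, 4.71, 5.31 and 5.43 FPKM for RA WT against 9.53, 9.19 and 11.2 for OIR WT (log2 difference 0.89 ± 0.11, adjusted p = 0.00188); these 2 held without each library. Mlkl, the executor of necroptosis, rose from 0.0934 ± 0.0675 to 0.747 ± 0.215 FPKM, lost on leaving out RA WT 2 (adjusted p then 0.0509), OIR WT 1 (then 0.0653) or OIR WT 3 (then 0.0579).

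Leukocyte genes rose in 9 of 20 members (5 omitting RA WT 1, 5 omitting RA WT 2, 4 omitting OIR WT 1 and 5 omitting OIR WT 3). Cxcr4, a chemokine receptor of leukocytes and tip cells, measured 1.95, 2.11 and 1.71 FPKM for RA WT against 7.23, 7.79 and 8.70 for OIR WT (log2 difference 1.79 ± 0.17, adjusted p = 0.000511), and Icam1, the adhesion molecule that stops leukocytes on vessels, 0.536, 0.248 and 0.706 FPKM for RA WT against 2.28, 1.48 and 2.16 for OIR WT (log2 difference 1.32 ± 0.23, adjusted p = 0.00626). C1qb, a complement chain made by microglia, rose from 4.39 ± 0.341 to 15.9 ± 2.01 FPKM (log2 1.74). Antigen presentation genes rose in 8 of 18 members (4 omitting RA WT 1, 4 omitting RA WT 2, 5 omitting RA WT 3, 3 omitting OIR WT 1 and 4 omitting OIR WT 3), with a median of 0.75. H2-Ab1, a class II chain of antigen-presenting cells, measured 0.665, 0.328 and 1.13 FPKM for RA WT against 13.1, 8.51 and 11.2 for OIR WT (log2 difference 3.28 ± 0.27, adjusted p = 0.000357), and the class I genes H2-T23 (from 2.55 ± 0.403 to 7.16 ± 1.77 FPKM) and H2-Q4 (from 2.41 ± 0.0454 to 8.02 ± 1.18 FPKM) rose. Class I genes of this family are near-identical in part, so single entries are uncertain. Markers of mast cells, T cells, B cells and neutrophils were near 0: of 14, only Cd8a passed the filter. Cd8a, a chain of the T cell co-receptor, rose (log2 0.65, adjusted p = 0.0201), a call lost on leaving out RA WT 1 (adjusted p then 0.0554), OIR WT 1 (then 0.0742) or OIR WT 3 (then 0.0647). Cd3d and Ly6g were listed at 0 in all 6 libraries, and the list summed to 0.700 to 1.08 FPKM in RA WT and 2.09 to 2.74 FPKM in OIR WT.

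Several Müller glial genes that serve neurons fell. Glul, glutamine synthetase, had the largest loss in FPKM of the genes called in every fit and measured 976, 1268 and 1224 FPKM for RA WT against 373, 662 and 416 for OIR WT (log2 difference -1.29 ± 0.23, adjusted p = 0.00745). Kcnj10, the potassium channel Kir4.1, measured 16.3, 19.5 and 20.0 FPKM for RA WT against 9.69, 8.41 and 7.31 for OIR WT (log2 difference -1.09 ± 0.12, adjusted p = 0.00114), and Aqp4, the water channel beside it in glial endfeet, 21.8, 24.8 and 18.2 FPKM for RA WT against 8.83, 12.1 and 8.16 for OIR WT (log2 difference -1.12 ± 0.16, adjusted p = 0.00294). The GABA transporter Slc6a11 fell from 77.3 ± 12.1 to 39.0 ± 2.26 FPKM and Rlbp1, the retinaldehyde binding protein, from 257 ± 40.5 to 121 ± 28.2 FPKM. None of these 5 genes overlapped between groups, where 17.2% of all tested genes lay lower in OIR WT without overlap. Of 22 tested genes of Müller ion, water and transmitter handling 7 fell and 3 rose (rises of 1 omitting RA WT 1, 1 omitting RA WT 2, 1 omitting OIR WT 1 and 1 omitting OIR WT 3), with a median of -0.45. The glutamate transporter Slc1a3 did not pass (log2 -0.13, adjusted p = 0.449) and neither did Kcnj2, a channel of the same family as Kcnj10 (log2 0.18, adjusted p = 0.418). Gfap, an intermediate filament of reactive glia and astrocytes, measured 7.36, 6.78 and 17.7 FPKM for RA WT against 126, 46.8 and 148 for OIR WT, a rise (log2 3.25) lost on leaving out RA WT 1 (adjusted p then 0.0722), RA WT 2 (then 0.0836), OIR WT 1 (then 0.0828) or OIR WT 3 (then 0.0802). Of 7 tested astrocyte markers 3 rose and 2 fell (rises of 1 omitting RA WT 1, 0 omitting RA WT 2, 1 omitting RA WT 3, 0 omitting OIR WT 1 and 0 omitting OIR WT 3). The list summed to 45.6 to 53.1 FPKM in RA WT and 79.4 to 178 FPKM in OIR WT. Pax2, which defines retinal astrocytes, did not exceed 0.401 FPKM in any of the 6 libraries.

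Genes that answer glucocorticoids split. Of 19 tested members 7 fell and 3 rose (falls of 4 omitting RA WT 3 and 4 omitting OIR WT 3; rises of 1 omitting RA WT 2 and 1 omitting OIR WT 1). Fam107a measured 7.35, 9.80 and 14.1 FPKM for RA WT against 1.21, 1.59 and 0.366 for OIR WT (log2 difference -2.86 ± 0.40, adjusted p = 0.00362), and Tsc22d3, the steroid-induced protein GILZ, 20.4, 24.5 and 25.7 FPKM for RA WT against 13.1, 12.8 and 13.0 for OIR WT (log2 difference -0.83 ± 0.09, adjusted p = 0.00129). Glul and Hif3a are also on this list. Ddit4, listed as a hypoxia target too, rose, and the receptor gene Nr3c1 did not pass (log2 0.04, adjusted p = 0.859). Among clock genes the outputs Hlf (from 40.2 ± 1.89 to 22.2 ± 1.80 FPKM, log2 -0.84) and Tef (from 72.6 ± 4.36 to 49.9 ± 1.93 FPKM, log2 -0.53) fell and the repressors Bhlhe40 (from 15.2 ± 2.47 to 30.8 ± 1.12 FPKM) and Bhlhe41 (from 18.2 ± 1.25 to 27.2 ± 3.02 FPKM) rose, in total 3 risen and 4 fallen of 21 (falls of 2 omitting RA WT 2). The core factor Arntl did not pass (log2 0.18, adjusted p = 0.182). The labels give no time of day.

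Among neuronal genes of synaptic release, receptors and channels, more members fell than rose. Of 34 tested genes of synaptic vesicles and ribbons 16 fell and 2 rose, with a median of -0.34. Cplx1, a complexin of conventional synapses, measured 59.4, 72.6 and 89.1 FPKM for RA WT against 24.1, 21.8 and 28.0 for OIR WT (log2 difference -1.55 ± 0.17, adjusted p = 0.00129). Cplx4, a complexin of photoreceptor ribbon synapses, moved the other way, from 202 ± 15.8 to 275 ± 8.89 FPKM (log2 0.45), a call lost on leaving out OIR WT 1 (adjusted p then 0.0594). The complexins Cplx2 and Cplx3 were called as fallen, and their calls without single libraries are not given here. Vamp1, a vesicle fusion protein, fell from 33.0 ± 4.67 to 18.2 ± 0.700 FPKM, and Slc17a6, the vesicular glutamate transporter of ganglion cells, from 15.2 ± 0.460 to 8.30 ± 1.60 FPKM (log2 -0.85). Slc17a7, the vesicular transporter of photoreceptors and bipolar cells, did not pass (log2 -0.19, adjusted p = 0.288).

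Of 39 tested GABA, glycine and glutamate receptor genes 16 fell and 1 rose (falls of 7 omitting OIR WT 1 and 10 omitting OIR WT 3), with a median of -0.45. Gabra3, a GABA-A receptor subunit, measured 10.8, 10.3 and 11.0 FPKM for RA WT against 6.88, 6.08 and 6.63 for OIR WT (log2 difference -0.68 ± 0.10, adjusted p = 0.00362), Grik1, a kainate receptor of OFF bipolar cells, 29.5, 28.1 and 30.7 FPKM for RA WT against 16.8, 19.9 and 15.7 for OIR WT (log2 difference -0.74 ± 0.12, adjusted p = 0.00526), and Grin1, the obligatory NMDA receptor subunit, 25.2, 24.8 and 31.9 FPKM for RA WT against 15.6, 16.3 and 16.3 for OIR WT (log2 difference -0.74 ± 0.13, adjusted p = 0.00612). Gabra3, Grik1 and Grin1 were taken as called members of smallest p, so a spread that is small beside the fall follows from the choice. Channel genes fell in 13 of 42 members and rose in 1. Cacna2d3, an accessory calcium channel subunit, measured 37.8, 38.5 and 37.2 FPKM for RA WT against 14.5, 18.2 and 17.1 for OIR WT (log2 difference -1.17 ± 0.11, adjusted p = 0.000505), and Kcnip4, a subunit of A-type potassium channels, 20.2, 21.5 and 16.0 FPKM for RA WT against 7.60, 8.46 and 7.43 for OIR WT (log2 difference -1.24 ± 0.14, adjusted p = 0.00136). Among sodium channels, Scn1a fell from 7.19 ± 0.579 to 3.96 ± 0.103 FPKM (log2 -0.78) and Scn8a rose from 9.33 ± 1.51 to 17.9 ± 2.71 FPKM (log2 0.90). Calm2 (log2 -0.56) and Calm3 (log2 -0.59), which encode the calcium sensor calmodulin, fell. Cck, a peptide of amacrine cells, measured 25.4, 21.6 and 23.1 FPKM for RA WT against 6.60, 5.07 and 5.15 for OIR WT (log2 difference -1.97 ± 0.14, adjusted p = 0.000151).

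Cell type lists are given by their fallen members. Ganglion cell and axon injury genes had 10 fallen and 3 risen of 25 (falls of 6 omitting RA WT 2, 6 omitting RA WT 3, 6 omitting OIR WT 1 and 6 omitting OIR WT 2). Pou4f2, a ganglion cell factor, measured 4.13, 4.72 and 4.70 FPKM for RA WT against 2.26, 2.26 and 2.34 for OIR WT (log2 difference -0.85 ± 0.14, adjusted p = 0.0055), and Thy1, a surface protein of these cells, 108, 136 and 156 FPKM for RA WT against 68.0, 60.6 and 80.6 for OIR WT (log2 difference -0.92 ± 0.16, adjusted p = 0.00611). The injury-response genes Jun (from 22.6 ± 2.24 to 45.7 ± 9.07 FPKM), Atf3 (from 1.74 ± 0.418 to 14.6 ± 6.38 FPKM) and Ecel1 (from 0.135 ± 0.0521 to 2.84 ± 1.55 FPKM) were the 3 that rose. The marker Rbpms, used to count ganglion cells, did not pass (log2 -0.46, adjusted p = 0.11). In the bipolar cascade 8 of 22 fell and 1 rose (falls of 5 omitting RA WT 3, 3 omitting OIR WT 1 and 4 omitting OIR WT 3), with Tacr3, a tachykinin receptor of OFF bipolar cells, at 7.65, 7.43 and 7.12 FPKM for RA WT against 2.83, 3.68 and 3.15 for OIR WT (log2 difference -1.09 ± 0.15, adjusted p = 0.00283), and Trpm1, the transduction channel of ON bipolar cells, not called (log2 0.09, adjusted p = 0.768).

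Of 18 tested genes of opsins and cone transduction 5 fell and 1 rose (falls of 3 omitting RA WT 1, 2 omitting RA WT 2, 3 omitting RA WT 3, 2 omitting OIR WT 1 and 2 omitting OIR WT 3). The 5 include Opn4, which is on the ganglion cell list too and whose call did not hold in every fit. The 1 that rose, Gnb3, is also the 1 that rose in the bipolar list, and its call did not hold in every fit. Grik1 and Grm6 are counted as fallen in both the receptor and bipolar lists, and Slc17a6 in both the synaptic and ganglion lists. Counts of these lists are therefore not independent. Guca1a, the activator of guanylate cyclase in photoreceptors, measured 362, 385 and 449 FPKM for RA WT against 147, 192 and 155 for OIR WT (log2 difference -1.28 ± 0.14, adjusted p = 0.00114), whereas the opsins Opn1sw (log2 -0.17, adjusted p = 0.37) and Opn1mw (log2 -0.02, adjusted p = 0.96) did not pass. Of 24 rod genes 1 fell, Guca1b (log2 -0.37), lost on leaving out OIR WT 1 (adjusted p then 0.0737) or OIR WT 3 (then 0.0658). No rod gene rose, but 3 did omitting RA WT 1. The medians of the lists were -0.47 for ganglion, -0.36 for bipolar, -0.21 for opsin and cone and -0.04 for rod genes. Whether the lists differ from each other was not tested. Neurotrophic genes had 6 fallen and 3 risen of 27 (rises of 1 omitting RA WT 3): Fgf1 measured 10.5, 10.9 and 14.9 FPKM for RA WT against 4.04, 5.07 and 5.15 for OIR WT (log2 difference -1.26 ± 0.15, adjusted p = 0.00161), and Bdnf did not pass (log2 -0.21, adjusted p = 0.455). Among factors of progenitors and neurogenesis (5 risen, 4 fallen of 25; rises of 3 omitting RA WT 3, 3 omitting OIR WT 1 and 3 omitting OIR WT 3; falls of 1 omitting OIR WT 1), the proneural factor Neurog2 measured 1.82, 2.41 and 2.42 FPKM for RA WT against 16.4, 16.6 and 18.4 for OIR WT (log2 difference 2.70 ± 0.32, adjusted p = 0.00232) and the glial factor Sox9 5.28, 5.78 and 5.11 FPKM for RA WT against 13.0, 13.6 and 15.3 for OIR WT (log2 difference 1.29 ± 0.20, adjusted p = 0.00447), while Six6, an eye-field factor, fell from 18.3 ± 1.21 to 11.3 ± 0.147 FPKM (log2 -0.67).

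**Figure D4:**
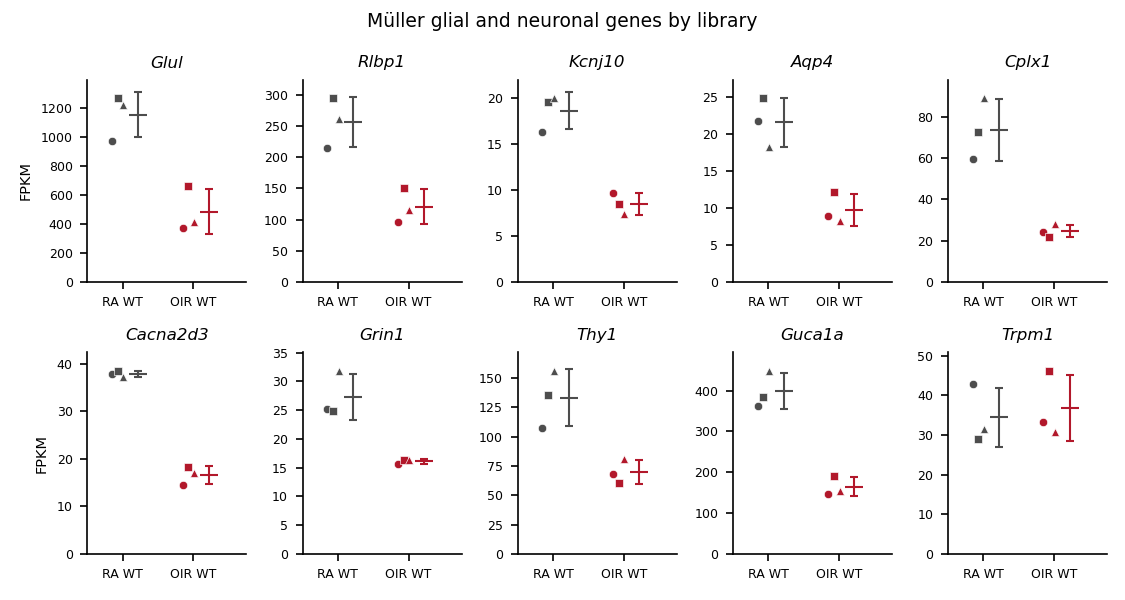
FPKM of 4 Müller glial genes and 6 neuronal genes in each library of RA WT (grey) and OIR WT (red): circles, squares and triangles are libraries 1, 2 and 3, and bars are the mean ± SD (n = 3). All lie lower in OIR WT without overlap except Trpm1, whose groups overlap.

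**Figure D5:**
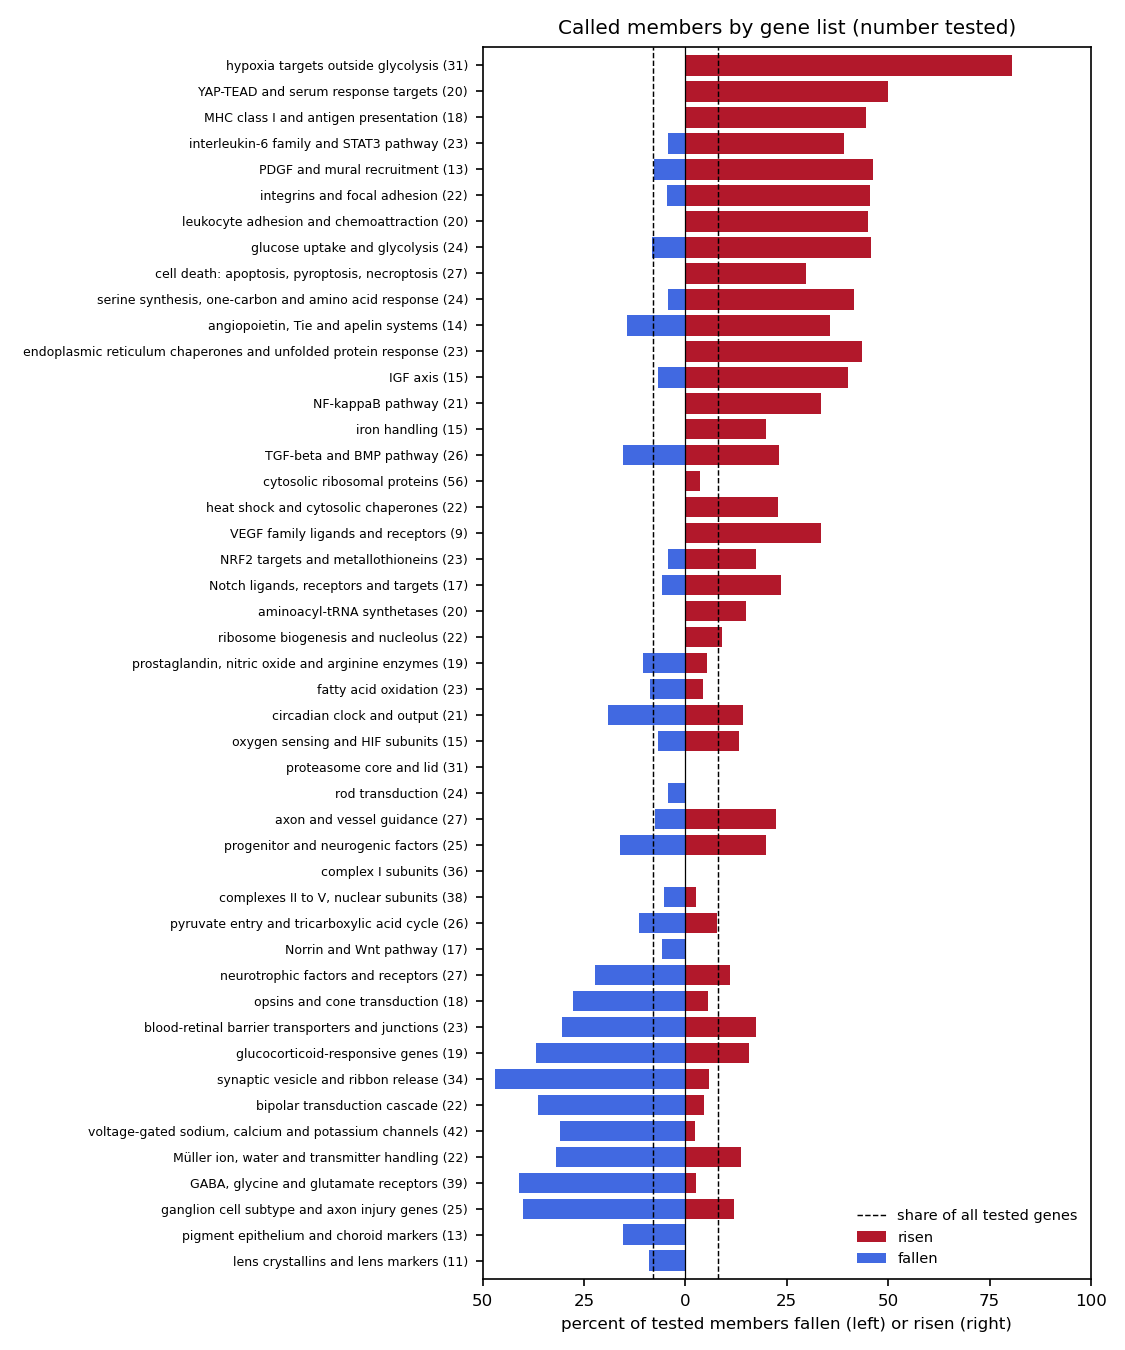
Percent of the tested members of each gene list that rose (red, right) or fell (blue, left), ordered by the list's median log2 difference. Shown are lists with at least 9 tested members (numbers in brackets), without the list of defining retinal markers. The dashed lines mark the shares of all tested genes, 8.04% risen and 7.92% fallen; hypoxia targets lie highest (25 of 31 risen), and synaptic release genes reach furthest to the fallen side (16 of 34).

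Further genes led by p or by their difference in FPKM. Among rises of smallest p, Crip1, a small LIM protein, measured 2.89, 3.21 and 3.80 FPKM for RA WT against 10.7, 13.1 and 12.7 for OIR WT (log2 difference 1.74 ± 0.12, adjusted p = 0.000111), Muc2, a gel-forming mucin, 2.18, 1.06 and 1.07 FPKM for RA WT against 15, 16.0 and 11.7 for OIR WT (log2 difference 2.96 ± 0.23, adjusted p = 0.00024), Piwil4, a piRNA-binding protein, 0.118, 0.288 and 0.290 FPKM for RA WT against 3.29, 2.55 and 3.21 for OIR WT (log2 difference 2.27 ± 0.18, adjusted p = 0.00024), and Gipr, the receptor of an incretin hormone, 0.559, 1.01 and 0.486 FPKM for RA WT against 11.3, 7.75 and 11.7 for OIR WT (log2 difference 3.19 ± 0.25, adjusted p = 0.000256). Higd1b, a pericyte gene, rose from 2.31 ± 0.360 to 9.03 ± 0.672 FPKM. Plekhb1, a membrane protein of photoreceptors, had one of the 8 largest gains in FPKM (185 ± 28.0 to 387 ± 29.0 FPKM), as did Mif, a cytokine that many cells make (468 ± 34.4 to 659.6 ± 43.8 FPKM). Piwil4 overlaps Gm10706 in the annotation.

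Among falls of smallest p, Nrsn1, a neuronal vesicle protein, measured 41.9, 49.7 and 51.2 FPKM for RA WT against 17.1, 17.5 and 21.5 for OIR WT (log2 difference -1.33 ± 0.12, adjusted p = 0.000461), Etnppl, a lipid enzyme of astroglia, 2.44, 3.78 and 3.45 FPKM for RA WT against 0.205, 0.515 and 0.269 for OIR WT (log2 difference -2.17 ± 0.20, adjusted p = 0.000511), Lgi2, a secreted neuronal protein, 2.90, 3.52 and 3.83 FPKM for RA WT against 1.03, 0.892 and 1.07 for OIR WT (log2 difference -1.38 ± 0.14, adjusted p = 0.000697), and Cpne7, a copine, 8.85, 11.0 and 8.57 FPKM for RA WT against 3.69, 3.80 and 3.91 for OIR WT (log2 difference -1.20 ± 0.12, adjusted p = 0.000697). Rab22a, an endosomal GTPase, measured 6.42, 7.09 and 7.46 FPKM for RA WT against 2.21, 2.33 and 1.78 for OIR WT (log2 difference -1.53 ± 0.12, adjusted p = 0.000256), and OIR KO was at 6.33, 6.94 and 5.93 FPKM. Rab3a, a GTPase of synaptic vesicles, had one of the 8 largest losses in FPKM (298 ± 31.8 to 195 ± 8.92 FPKM, log2 -0.60). Tmem254a was listed at 0 in all RA WT and all OIR KO libraries and at 4.33, 2.95 and 5.64 FPKM in OIR WT. It has near-identical copies, so its level is uncertain, and no fold is given against a group at 0. A total of 84 entries were listed at 0 in every RA WT library and above 0 in every OIR WT library, and 45 the reverse. With ordinary symbols, those with the highest lowest value in OIR WT were Tmem254a, Ccl2, Lilrb4a, Matn4, Evi2a and Adm2. Ccl2, a chemokine, was called, but not on leaving out RA WT 1 (adjusted p then 0.0907), RA WT 2 (then 0.101), RA WT 3 (then 0.101), OIR WT 1 (then 0.138) or OIR WT 3 (then 0.129). The reverse set included the crystallins Cryge and Crybb2, whose highest RA WT value was in RA WT 1, and which are lens genes.

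Other tissues that a dissection could carry were followed by their markers. Of 12 oligodendrocyte and myelin markers 4 passed the filter with none called, and the list summed to 21.6 to 26.0 FPKM in RA WT and 26.6 to 31.2 FPKM in OIR WT. Pigment epithelium and choroid markers had 2 of 13 fallen, Stra6 (log2 -0.91) and Rgr (log2 -1.1), and summed to 94.4 to 160 FPKM in RA WT and 51.0 to 108 FPKM in OIR WT. The Stra6 call was lost on leaving out RA WT 3 (adjusted p then 0.0709), OIR WT 1 (then 0.0783) or OIR WT 3 (then 0.0765), and the Rgr call on leaving out RA WT 1 (adjusted p then 0.0872), RA WT 2 (then 0.0779), RA WT 3 (then 0.123), OIR WT 1 (then 0.132) or OIR WT 3 (then 0.123). Without OIR WT 2, 5 of the 13 fell. Lens genes had 1 fallen member, Bfsp2, at 1.08, 1.31 and 0.870 FPKM for RA WT against 0.0762, 0.319 and 0.0592 for OIR WT. Cornea and muscle markers summed to at most 5.01 FPKM in any library. The part of these tissues in the results above was not tested.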

How the data were processed

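The members of the comparison and the gene lists were chosen with earlier results of these data known, so no list is independent support for its direction. Per the labels' protocols, RNA from frozen retinas was Trizol-extracted, and 1 ug per sample went into an NEBNext Ultra library kit. HISAT2 and GRCm38 are named in the submitters' processing notes. Aligner version, quantifier, strandedness and gene models: not given in the sources used here. FPKM values, 1 column per library, were deposited by the authors without counts, which leaves count models and counting intervals out of reach. Without strand, a gene and an overlapping one on the other strand cannot be told apart.

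Of the 25108 entries, 22036 had an Ensembl ID, and 22022 matched GENCODE M21 for coordinates and overlaps. Where a symbol stood on more than 1 entry (19 symbols), the entry with the highest mean kept it. Values were taken as log2(FPKM + 0.5), which understates changes of low genes. Genes with at least 0.5 FPKM in at least 3 of 9 libraries were fitted with limma 3.58.1 in R 4.3.3: 1 mean per group over all 9 libraries, no covariate, empirical Bayes with trend and robust options, two-sided, Benjamini-Hochberg over all tested genes. The script was tested on simulated data. Ratios used exact two-sided permutation tests.

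Named genes followed a rule. It took the 10 risen and 10 fallen genes of smallest p, and the 8 of largest FPKM gain and loss, among genes called also without each library in turn. It added up to 4 called members of each of 54 lists, uncalled members whose role needs a value, and up to 6 entries listed at 0 in either group. A few genes that it takes are not reported here. Other named genes were chosen after their values were seen. Alternatives were other pseudocounts, filters, scalings and moderation, the 6 libraries alone, a replicate block, a Y-linked covariate and each library left out.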

Additional observations from a re-analysis of the deposited data

How the results depend on the processing

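The fit as reported called 2503 genes, 1261 risen and 1242 fallen. Other pseudocounts, filters and scalings, plain empirical Bayes and the fit of the 6 wild-type libraries alone gave 2310 to 2575 calls. Quantile normalization moved the split to 1129 risen and 1446 fallen. With a replicate block the fit called 1692 genes, of which 802 rose and 890 fell, against 1261 and 1242 without it. Deviations of same-numbered libraries from their group means correlated at r = -0.04, -0.04 and 0.13 across genes, which are not independent. Not every library correlated best with its own number. With 3 libraries per group, deviations within a group are tied to each other, so these values cannot decide whether the numbers pair the samples. A Y-linked covariate gave 1581 calls, 814 risen and 767 fallen. Leaving out 1 library gave 1031 to 2166 calls, with 546 to 1183 risen and 485 to 1144 fallen. In every one of these fits, all genes shared with the reported calls kept their direction. None of the 258 genes examined singly, those named and those the naming rule takes, reversed a call, but calls were lost for 28 with the replicate block, 29 with the Y-linked covariate, 9 without a filter, 8 with plain empirical Bayes, 7 with the 6 libraries alone and 14 to 52 with 1 library left out. The 3 libraries per group, unknown absolute depth and FPKM without counts limit what can be tested, above all for genes near the filter.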
